A study of Sus scrofa with 12 samples.

Results

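The hedgehog pathway genes described here are DHH, which encodes the Desert hedgehog ligand, the receptor gene PTCH1, the signal transducer gene SMO, the transcription factor genes GLI1, GLI2 and GLI3, and HHIP, which encodes an inhibitor that binds the ligand. They were taken from the table of coding genes by gene symbol, and all 7 were found among its 21674 mRNAs. In the testis, Sertoli cells inside the cords secrete Desert hedgehog. The ligand binds Patched on neighbouring interstitial and peritubular cells, which releases Smoothened at the primary cilium and turns the GLI proteins towards activating transcription. PTCH1, GLI1 and HHIP are themselves induced by the signal and are commonly read as its output, and the pathway is known for its part in the differentiation of Leydig cells and the building of the cord wall.

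Testes were taken from Hezuo (HZ) and Landrace (LC) boars to compare a breed that matures early with one that matures later. The groups were HZ boars of 30 days (Ha), HZ boars of 120 days (Hb), LC boars of 30 days (La) and LC boars of 120 days (Lb), with 3 boars and 3 libraries in each. Whole testis RNA was depleted of ribosomal RNA and sequenced in strand-specific libraries. The estimated mRNA counts of a library summed to between 17165519 and 23758931, with a median of 22622992.5.

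All 7 genes were tested in every comparison. Levels of 1 gene across libraries are given as CPM, its counts relative to a library total scaled by TMM, and levels of different genes are set side by side only as FPKM, which is scaled by transcript length. A gene was called where the adjusted p of edgeR's quasi-likelihood test was under 0.05 and the absolute log2 fold change was over 1, with each change expressed as the later-named group relative to the one named before it. The comparisons share libraries in pairs, so that Ha enters both Ha vs Hb and Ha vs La, and likewise for the other groups. Whole testis was sequenced, so fewer cells of a type and less RNA in each cell cannot be told apart.

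The library Hb1 stood apart from the other libraries of its group in Leydig cell markers and in 2 collagen genes. The 7 Leydig markers summed to 2180 FPKM in Hb1, 189 FPKM in Hb2 and 128 FPKM in Hb3, and the most abundant of them in Hb1 was INSL3 at 1549 FPKM. In Lb the same sums were 2708, 4057 and 1712 FPKM, so that Hb1 lay within the range of Lb while Hb2 and Hb3 lay under it. COL3A1 was at 237, 44.2 and 33.7 CPM and COL1A2 at 118, 22.9 and 23.8 CPM in Hb1, Hb2 and Hb3. The summed stromal markers of Hb1 were at 102 FPKM, against 101 and 66.5 FPKM in Hb2 and Hb3, and the Sertoli markers at 178 FPKM, against 285 and 214 FPKM. The tests of the 7 genes that use Hb are therefore given with and without Hb1. For the other genes of the pathway and the distances between members this was chosen after seeing the data.

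The pathway genes differed widely in level. On the FPKM scale, SMO and PTCH1 were the most abundant members in the 30-day testis, at 20.7 ± 2.85 FPKM and 18.9 ± 1.57 FPKM in Ha and 25.8 ± 2.99 FPKM and 21.5 ± 1.91 FPKM in La (mean ± SD, n = 3). DHH followed at 9.50 ± 0.434 FPKM in Ha and 8.93 ± 1.305 FPKM in La, and HHIP at 4.52 ± 0.575 FPKM and 6.35 ± 1.81 FPKM. The GLI genes were the least abundant, with FPKM levels in Ha of 3.62 ± 0.330 for GLI3, 2.71 ± 0.462 for GLI1 and 1.46 ± 0.159 for GLI2. At 120 days the FPKM level of PTCH1 was 5.96 ± 2.05 in Hb and 6.64 ± 1.85 in Lb, that of SMO was 5.88 ± 2.64 and 5.25 ± 1.63, and that of DHH was 2.58 ± 0.894 and 5.90 ± 0.434. DHH thus stood under PTCH1 and SMO in Hb, while in Lb these 3 genes differed by less than the spread of PTCH1 and SMO. The other hedgehog ligand genes were almost unread, with at most 1 count of SHH and at most 10 counts of IHH in any library, and both fell under the filter on low counts.

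To ask how the pathway changed with age in HZ boars, Ha was compared with Hb. All 7 genes fell from 30 to 120 days, the whole line from ligand to inhibitor, by log2 fold changes between -1.21 and -1.61, and 6 of them were called without Hb1, as PTCH1 came just short. Of the 16548 mRNAs tested, 23.2% were called lower in Hb, and the median log2 fold change of all tested mRNAs was -0.02 against -1.54 for the 7 genes. In LC boars the same question was put to La vs Lb, where 5 of the 7 genes fell, and DHH and GLI1 were not called. Of the 16637 mRNAs tested, 20.1% were called lower in Lb, and the median was 0.01 for all tested mRNAs and -1.40 for the 7 genes. With the threshold on the adjusted p alone, 6 of the 7 genes were lower in Lb, beside 33% of the tested mRNAs.

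**Figure D1:**
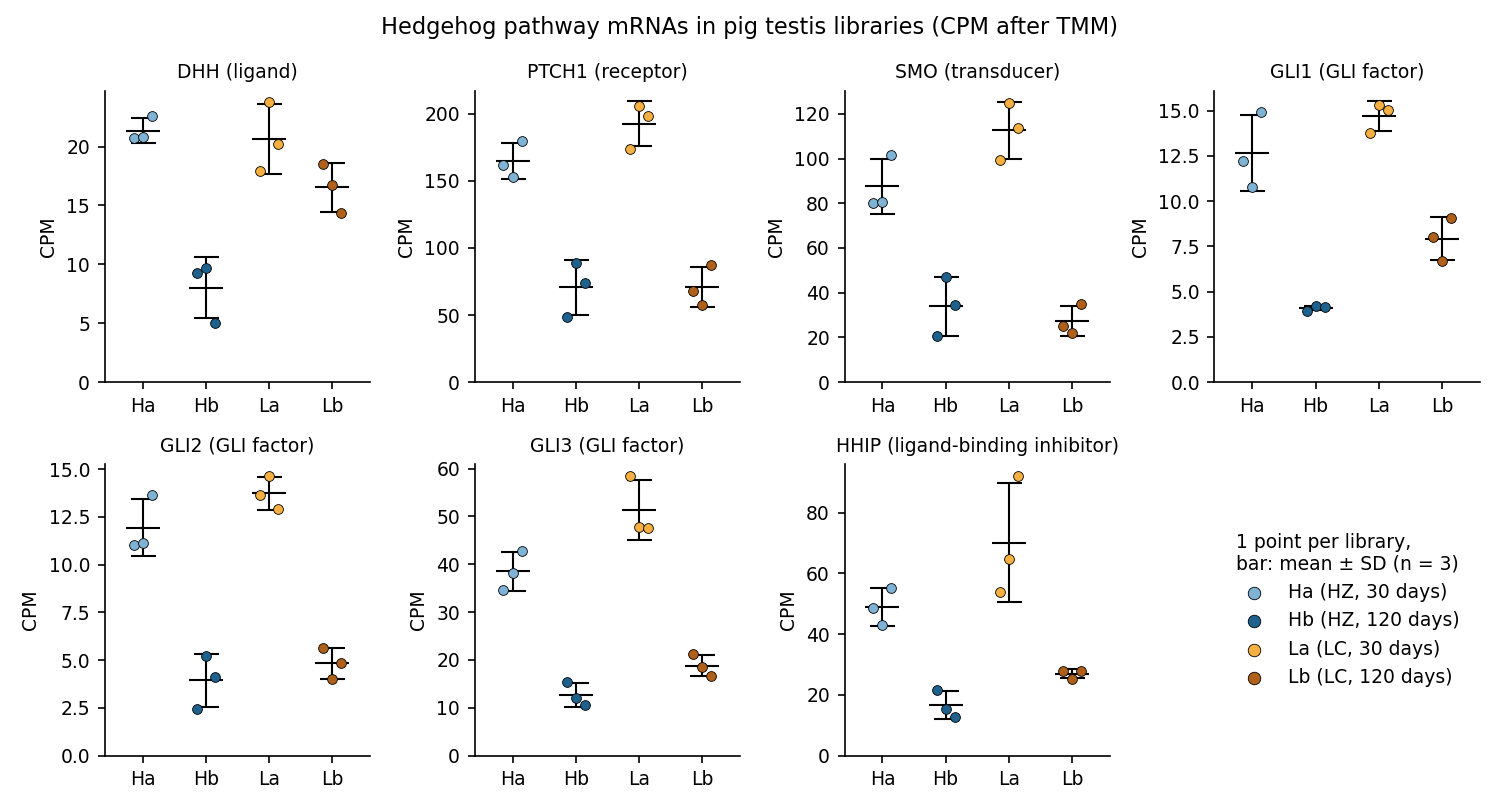
CPM of the 7 hedgehog pathway mRNAs in each of the 12 libraries, with 1 panel per gene, 1 point per library and bars for the mean ± SD of 3 libraries. In all 7 panels the Hb libraries lie under the Ha libraries, and DHH is the gene whose La and Lb libraries overlap. The share of all mRNAs with ages separated in this way was not counted.

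DHH, the ligand gene on chromosome 5 (15114524 to 15119610, Sscrofa11.1), had CPM values of 20.7, 20.8 and 22.6 in Ha1, Ha2 and Ha3. The values were 9.29, 9.71 and 5.04 CPM in Hb1, Hb2 and Hb3. In La they were 17.9, 23.8 and 20.2 CPM, and in Lb 18.5, 16.7 and 14.4 CPM. The 3 Hb libraries were the lowest of the 12, Hb3 the lowest among them, and the ranges of La and Lb overlapped. The order of the group means was Ha, La, Lb and Hb, and neither Ha and La nor La and Lb were separated. The log2 fold change was -1.39 in Ha vs Hb (SE 0.26, edgeR adjusted p = 0.00239) and -0.28 in La vs Lb (SE 0.17, edgeR adjusted p = 0.162). Without Hb1 the fall in HZ boars was -1.51 (edgeR adjusted p = 0.00449). In La vs Lb the adjusted p lay between 0.00598 and 0.266 under the other settings, and the log2 fold change between -0.58 and -0.25 (-0.38 to -0.18 without single libraries), so that DHH stayed under the fold threshold in all of them.

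DHH was also the member for which the study designed a PCR assay, whose primers are shown because they mark the stretch of the ligand's mRNA that was chosen for measurement. They were not placed on the genome here.
DHH forward primer: caaccccgacatcatcttc
DHH reverse primer: tttacccgctccttacacc

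PTCH1, the receptor gene on chromosome 10 (26627165 to 26703225), was the member with the most reads. Its values were 162, 153 and 180 CPM in the Ha libraries and 48.7, 88.6 and 74.1 CPM in Hb1, Hb2 and Hb3. In LC boars they were 174, 206 and 198 CPM in La and 68.1, 57.7 and 87.2 CPM in Lb. Each 120-day library was lower than each 30-day library, and within an age the ranges of the breeds overlapped. The log2 fold change was -1.21 in Ha vs Hb (SE 0.21, edgeR adjusted p = 0.00177) and -1.40 in La vs Lb (SE 0.17, edgeR adjusted p = 0.000119). Hb1 was the lowest library, and without it the change in HZ boars was -0.998 with an edgeR adjusted p of 0.00106, just short of the fold threshold, so that 6 of the 7 genes were called. The annotated lncRNA LOC106505124 lies inside the span of PTCH1 and overlaps it by 4238 bases. Whether the counting used the strand is not given in the sources used here, so reads there cannot be assigned with certainty.

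SMO, which passes the signal on once Patched is bound, lies on chromosome 18 (19450730 to 19478796). It was at 80.3, 80.6 and 102 CPM in Ha and at 20.6, 46.8 and 34.6 CPM in Hb1, Hb2 and Hb3. In La it was at 99.4, 125 and 114 CPM and in Lb at 25.1, 22.1 and 34.8 CPM. The ages were separated in both breeds, and within each age the breeds overlapped. The fall in LC boars was the widest change of any member in the 4 comparisons (log2 fold change -2.00, SE 0.19, edgeR adjusted p = 3.20e-05). In HZ boars it was -1.35 (SE 0.28, edgeR adjusted p = 0.00392), and -1.09 without Hb1 (edgeR adjusted p = 0.00286).

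GLI1, a GLI activator that is also a target of the pathway, lies on chromosome 5 (22736325 to 22747421). Its values were 12.2, 10.8 and 14.9 CPM in Ha and 3.96, 4.21 and 4.13 CPM in Hb. In La they were 13.8, 15.3 and 15.02 CPM and in Lb 8.02, 6.69 and 9.05 CPM. The Hb libraries lay close together at the bottom, the Lb libraries lay between them and the 30-day libraries, and only Ha and La overlapped. The log2 fold change was -1.61 in Ha vs Hb (SE 0.22, edgeR adjusted p = 0.000474) and -1.58 without Hb1 (edgeR adjusted p = 0.00165). In La vs Lb it was -0.85 (SE 0.19, edgeR adjusted p = 0.00352), which is under the fold threshold. GLI1 passed it with library sizes alone (-1.02) and with limma on log2(FPKM + 0.1) (-1.11), 2 scalings that also moved the median of all tested mRNAs by -0.17 and -0.28, and its adjusted p lay between 0.000247 and 0.0104 over all settings. GLI1 overlaps ARHGAP9, a coding gene, by 76 bases, where reads may be shared.

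GLI2 and GLI3, the members of the family that respond to the signal first and of which GLI3 acts largely as a repressor without it, fell in both breeds. GLI2 on chromosome 15 (30312528 to 30580272) ranged from 11.03 to 14.7 CPM over the 30-day libraries and from 2.47 to 5.62 CPM over the 120-day libraries. Its log2 fold change was -1.58 in Ha vs Hb (SE 0.30, edgeR adjusted p = 0.00262), -1.33 without Hb1 (edgeR adjusted p = 0.00328), and -1.46 in La vs Lb (SE 0.20, edgeR adjusted p = 0.000244). On the scale of log2(FPKM + 1), which compresses a gene this low, the changes were -0.86 and -0.83 and were not called. GLI3 on chromosome 18 (52403463 to 52697906) was at 34.7, 38.2 and 42.7 CPM in Ha and at 15.4, 12.1 and 10.54 CPM in Hb. In La it was at 58.6, 47.7 and 47.6 CPM and in Lb at 21.1, 18.5 and 16.7 CPM. The 4 groups of GLI3 did not overlap, with the order La, Ha, Lb and Hb. Its log2 fold change was -1.59 in Ha vs Hb (SE 0.20, edgeR adjusted p = 0.000306), -1.75 without Hb1 (edgeR adjusted p = 0.000290), and -1.41 in La vs Lb (SE 0.15, edgeR adjusted p = 4.91e-05).

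HHIP on chromosome 8 (83583735 to 83678368), the target that binds the ligand and dampens the signal, was at 48.6, 42.9 and 55.2 CPM in Ha and at 21.7, 15.4 and 12.6 CPM in Hb. In La it was at 53.8, 64.6 and 92.0 CPM and in Lb at 27.8, 25.2 and 28.0 CPM. La3 was the highest library and spread the La group widely, the ages were separated, and every Lb library was above every Hb library. The log2 fold change was -1.54 in Ha vs Hb (SE 0.23, edgeR adjusted p = 0.000818), -1.78 without Hb1 (edgeR adjusted p = 0.000332), and -1.34 in La vs Lb (SE 0.20, edgeR adjusted p = 0.000369). HHIP overlaps the coding gene LOC100525237 by 451 bases, where reads may be shared.

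**Figure D2:**
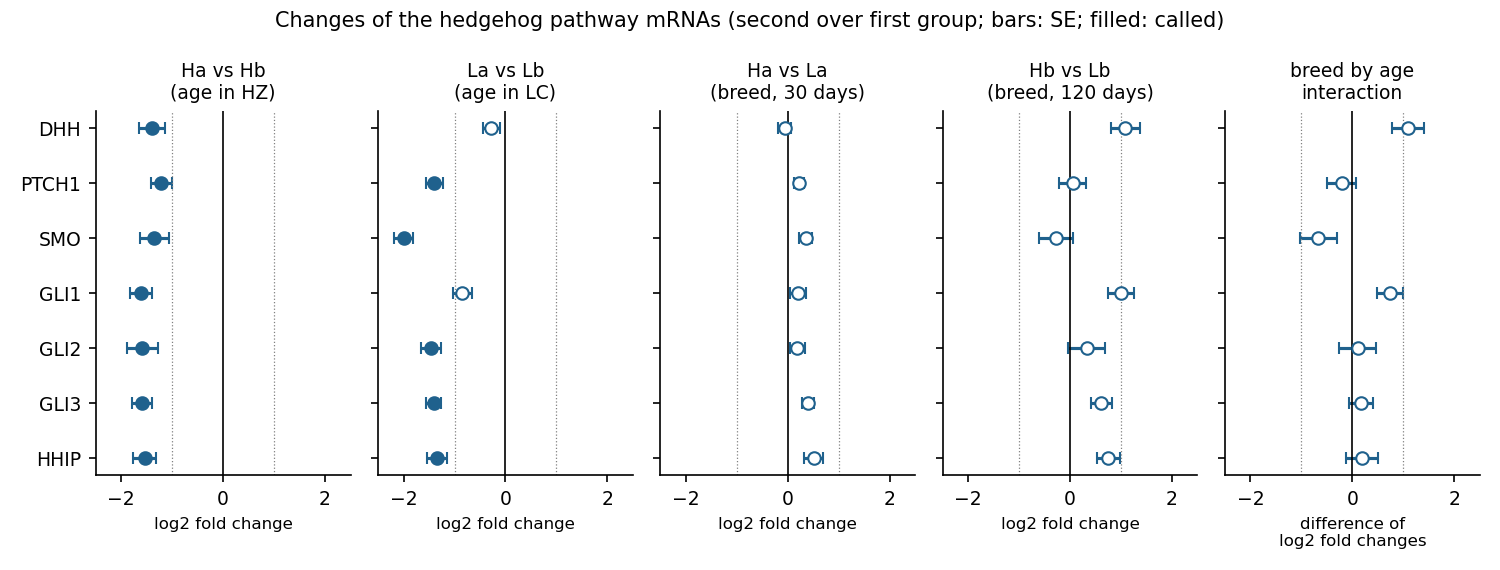
Log2 fold changes of the 7 genes in the 4 comparisons, and the difference between the breeds' changes with age, each with its SE from edgeR. Filled points were called, dotted lines mark log2 fold changes of -1 and 1, and the filled points all lie left of 0 in the 2 comparisons of age.

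The breeds were compared at 30 days in Ha vs La, to see whether the pathway differed before puberty. Of the 7 genes edgeR called 0, beside 7.62% of the 15648 mRNAs tested (1192, or 507 to 1466 over the other settings and single libraries left out), and DESeq2 and limma on log2(FPKM + 1) and log2(FPKM + 0.1) also called 0. At an unadjusted p under 0.05, reached by 36.4% of the tested mRNAs, there were 3, SMO, GLI3 and HHIP, with log2 fold changes of 0.35 (SE 0.12), 0.40 (SE 0.12) and 0.51 (SE 0.19). That of HHIP rested in part on La3, and lay between 0.28 without La3 and 0.68 without La1. GLI3 came closest, with the 3 La libraries above the 3 Ha libraries and an edgeR adjusted p of 0.0529, which lay between 0.0235 and 0.148 under the other settings. The values of PTCH1, GLI1 and GLI2 were 0.21 (SE 0.10), 0.21 (SE 0.15) and 0.19 (SE 0.14). Without single libraries that of GLI1 lay between 0.10 and 0.34 and that of GLI2 between 0.14 and 0.29, and that of DHH was -0.06 (SE 0.13), or 0.05 without La1.

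At 120 days, when the breeds differ in maturity, Hb vs Lb gave 0 called members in edgeR, beside 3.85% of the 16311 mRNAs tested. That share of all mRNAs was itself unsteady, with 628 called, 1224 by DESeq2 and 154 with the replicate number as a block. Leaving out Hb2 gave 1029, leaving out Hb1 gave 622, and leaving out Hb3 or any Lb library gave 97 to 182. At an unadjusted p under 0.05, reached by 25.5% of the tested mRNAs, there were 4 of the 7 genes. DHH had a log2 fold change of 1.08 (SE 0.28, edgeR adjusted p = 0.0670), GLI1 of 0.99 (SE 0.25, edgeR adjusted p = 0.0630), HHIP of 0.75 (SE 0.22, edgeR adjusted p = 0.0868) and GLI3 of 0.61 (SE 0.21, edgeR adjusted p = 0.121). For each of these genes the 3 Lb libraries were above the 3 Hb libraries. How many of all tested mRNAs were separated in this way was not counted, so this separation is not shown to be particular to them. PTCH1, SMO and GLI2 overlapped between the breeds, with log2 fold changes of 0.05 (SE 0.26), -0.28 (SE 0.33) and 0.33 (SE 0.36).

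The call for DHH at 120 days depended on the test. It passed both thresholds with DESeq2 (1.06, adjusted p = 0.00771), with limma on log2(FPKM + 0.1) (1.22, adjusted p = 0.0426) and in a fit of all 12 libraries by edgeR (1.04, adjusted p = 0.0119), and limma on log2(FPKM + 1) called 0 members. Over all settings the adjusted p of DHH lay between 0.00771 and 0.0933. It also passed without Hb2 (1.27, edgeR adjusted p = 0.0466), while without Hb1 it was 1.18 (edgeR adjusted p = 0.0955), and over the 6 fits that each left out 1 library the adjusted p lay between 0.0466 and 0.169. Without Hb1, HHIP was at 0.97 (edgeR adjusted p = 0.0470, under the fold threshold), GLI1 at 0.95 (0.119) and GLI3 at 0.76 (0.101), and PTCH1, SMO and GLI2 were at -0.17, -0.55 and 0.07. PTCH1 also changed its sign without Lb3 (-0.14), and SMO without Hb2 (0.05), and GLI2 was at 0.62 without Hb2.

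Whether the change with age differed between the breeds was tested as the interaction of breed and age over the 12 libraries, in which a positive value means that the gene fell less, or rose more, in LC boars. Of the 7 genes edgeR called 0, beside 5.14% of the 17332 mRNAs tested, and at an unadjusted p under 0.05 there were 2, DHH and GLI1, beside 24.1%. The count of all mRNAs called was 890, and it lay between 672 and 1378 under the other settings and between 437 without Ha1 and 1242 without Hb2. The ligand gene had the widest difference, at 1.10 (SE 0.32, edgeR adjusted p = 0.0577), and was called by DESeq2 (1.05, adjusted p = 0.0133), by limma on log2(FPKM + 1) (1.06, adjusted p = 0.0174) and on log2(FPKM + 0.1) (1.32, adjusted p = 0.0214), and with library sizes alone (1.24, edgeR adjusted p = 0.0357). The adjusted p of DHH lay between 0.0133 and 0.0672 over all settings. It was 1.26 without Hb2 (edgeR adjusted p = 0.0339) and 1.23 without Hb1 (edgeR adjusted p = 0.0522), and over the 12 fits that each left out 1 library the adjusted p lay between 0.0339 and 0.124. GLI1 was at 0.74 (SE 0.26, edgeR adjusted p = 0.104), or 0.75 without Hb1 (0.135), and SMO at -0.67 (SE 0.36, edgeR adjusted p = 0.287), or -0.90 without Hb1 (0.0907) and -0.36 without Hb2 (0.495). For PTCH1, GLI2, GLI3 and HHIP the difference lay between -0.21 and 0.19, or -0.38 and 0.46 without Hb1 (-0.38 to 0.48 over all 12 such fits), and that of GLI2 changed its sign without Hb1 (-0.12) or Lb1 (-0.01).

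The cell types that send and receive the signal also changed in marker level between the groups. Of all tested mRNAs, edgeR called 23.2% lower and 28.2% higher with age in HZ boars and 20.1% and 27.5% in LC boars. In Hb vs Lb it called 3.85% in either direction, and the counts of markers below are to be read beside these shares. The 7 Sertoli markers, with DHH left out of the list, summed to 773, 741 and 963 FPKM in Ha, 178, 285 and 214 FPKM in Hb, 1500, 1760 and 1623 FPKM in La and 304, 379 and 365 FPKM in Lb. The most abundant was INHA in the La libraries and Ha3 and CLDN11 in the others, and 3 of the 7 were called lower with age in HZ boars and 4 in LC boars. The 10 peritubular and stromal markers summed to 977, 950 and 978 FPKM in Ha and 102, 101 and 66.5 FPKM in Hb. In LC boars they summed to 1341, 1225 and 1512 FPKM in La and 530, 516 and 562 FPKM in Lb, with COL3A1 the most abundant gene in 9 of the 12 libraries and ACTA2 in Hb2, Hb3 and Lb3. In HZ boars 8 of the 10 were called lower with age, or 9 without Hb1, in LC boars 5 were called lower and 1 higher, and 5 were called higher in Lb than in Hb. The 7 Leydig markers summed to between 4883 and 5487 FPKM in Ha and between 5341 and 7771 FPKM in La, and 4 of the 7 were called lower with age in HZ boars, or 6 without Hb1, and 5 in LC boars. In Hb vs Lb 0 of them were called, or 5 higher in Lb without Hb1. None of the markers in these 3 lists was at 0 in any library.

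Other cells of the testis changed as well. The 5 endothelial markers summed to between 84.4 and 94.6 FPKM in Ha, 13.9 and 26.7 FPKM in Hb, 78.3 and 98.0 FPKM in La and 28.2 and 45.7 FPKM in Lb. VWF was the most abundant throughout, EMCN was at 0 in Hb2 and La3, and edgeR called 5 of the 5 lower with age in HZ boars, or 4 without Hb1, where EMCN lost its call (-2.78, adjusted p = 0.0905), and 3 in LC boars. The 5 macrophage markers summed to between 32.6 and 40.3 FPKM in Ha, 2.24 and 4.56 FPKM in Hb, 33.0 and 38.3 FPKM in La and 5.91 and 9.91 FPKM in Lb. CSF1R or CD163 was the most abundant, none was at 0, and 5 and 4 of the 5 were called lower. The 8 spermatocyte markers, led by PIWIL1 or MEIOB and with none at 0, were all called higher with age in both breeds. They summed to between 4.41 and 10.96 FPKM in the 30-day libraries and between 110 and 157 FPKM in the 120-day libraries. Of the 11 spermatogonial markers, 3 were called higher and 6 lower in HZ boars (3 and 4 without Hb1, where UTF1 and KIT lost their calls), and 4 higher and 5 lower in LC boars. In Ha vs La, 3 of the 7 Sertoli markers and 1 of the 7 Leydig markers were called higher in La. Called lower there were 4 of the 8 spermatocyte markers and 1 of the 10 spermatogonial markers tested. The stromal, endothelial and macrophage markers had 0 calls, and the share of all tested mRNAs was 7.62%. The stromal markers were not shown to be equal, since all their log2 fold changes lay under the fold threshold, between -0.62 and 0.74. Their median was 0.46, beside 0.002 for all tested mRNAs. The part of these cell types in the changes of the 7 genes was not tested.

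To set each gene against markers of the cells that are known to make its RNA, log2 ratios of FPKM values within a library were compared by a two-sided exact permutation test, which with 3 against 3 libraries cannot give a p under 0.1. DHH was divided by the geometric mean of SOX9 and WT1, transcription factors of Sertoli cells. The log2 ratio was -1.04, -1.27 and -1.26 in Ha, -1.40, -2.04 and -2.89 in Hb, -1.62, -1.36 and -1.53 in La and -1.07, -1.13 and -1.66 in Lb. DHH was thus lower relative to these markers in each Hb library than in each Ha library, with a difference of -0.92 (exact permutation p = 0.1), or -1.28 without Hb1 and -0.53 without Hb3. In Hb vs Lb it differed by 0.82 (exact permutation p = 0.2), or 1.18 without Hb1 and 0.43 without Hb3, so that the size of both rested in large part on Hb3. In La vs Lb the ratio differed by 0.22 (exact permutation p = 0.4). That value lay between 0.11 without Lb1 and 0.41 without Lb3, and it turned to -0.06 over WT1 alone. In Ha vs La it differed by -0.32 (exact permutation p = 0.1), or -0.18 over WT1 alone (exact permutation p = 0.6) and -0.46 over SOX9 alone (exact permutation p = 0.1). The direction in Ha vs Hb depended on the Sertoli markers taken. By log2 fold change, DHH (-1.39) fell less there than GATA4 (-2.19), INHA (-2.02) and AMH (-4.91). It fell more than CLDN11 (-0.85), SOX9 (-0.62), WT1 (-0.59) and FSHR (-0.16). DHH was thus lower in Hb relative to the latter markers only.

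PTCH1, GLI1 and HHIP were divided by the geometric mean of PDGFRA, PDGFRB and DCN, markers of stromal cells. The log2 ratio of PTCH1 was -1.03, -1.07 and -1.05 in Ha, -0.13, 0.16 and 0.60 in Hb, -1.49, -1.12 and -1.34 in La and -0.97, -1.55 and -0.90 in Lb. The PTCH1 ratio was higher in every Hb library than in each of the 9 others. The difference was 1.26 in Ha vs Hb (exact permutation p = 0.1), or 1.43 without Hb1, and -1.35 in Hb vs Lb (exact permutation p = 0.1), or -1.52 without Hb1. In La vs Lb it was 0.18 (exact permutation p = 0.5), between 0.06 without Lb3 and 0.39 without Lb2, and -0.10 over PDGFRA alone. In Ha vs La it was -0.27 (exact permutation p = 0.1), or -0.11 over PDGFRA alone (exact permutation p = 0.7) and -0.45 over DCN alone (exact permutation p = 0.1). Over single markers the difference of PTCH1 in Ha vs Hb ranged from 0.29 to 2.61, since PDGFRB alone fell by a log2 fold change of -3.65 (SE 0.45) and PDGFRA by -1.50 (SE 0.20). The value of 0.29 was over PDGFRA (exact permutation p = 0.5), where the ages overlapped. There Hb1 was at -1.17, under Ha1, Ha2 and Ha3 at -0.53, -0.85 and -0.53. In Hb vs Lb the PTCH1 ratio also depended on the marker, at -0.50 over PDGFRA (exact permutation p = 0.3), -0.83 over DCN (exact permutation p = 0.2) and -2.71 over PDGFRB (exact permutation p = 0.1). Of the other stromal markers, ACTA2 (-1.14), MYH11 (-0.57) and DES (0.11) fell less in Ha vs Hb than PTCH1 (-1.21), GLI1 (-1.61) and HHIP (-1.54), or rose. COL1A1 (-4.99), COL1A2 (-3.83), COL3A1 (-4.69) and LUM (-3.55) fell more (log2 fold changes). Relative to ACTA2, MYH11 and DES these pathway genes were thus not higher in Hb.

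The ratio of GLI1 was higher by 0.95 in Ha vs Hb (exact permutation p = 0.1), or 0.94 without Hb1, and by 0.75 in La vs Lb (exact permutation p = 0.1), with the ages separated in both breeds. Over PDGFRA alone the GLI1 difference in La vs Lb was 0.47 (exact permutation p = 0.2), with the ages overlapping. Over DCN alone it was 1.06 (exact permutation p = 0.1). The ratio of HHIP differed by 0.94 in Ha vs Hb (exact permutation p = 0.1), or 0.65 without Hb1, and by 0.30 in La vs Lb (exact permutation p = 0.4), a value between 0.11 and 0.48 without single libraries. The HHIP difference in La vs Lb was 0.03 over PDGFRA alone (exact permutation p = 0.9) and 0.61 over DCN alone (exact permutation p = 0.1). Over PDGFRA alone neither GLI1 (-0.01) nor HHIP (-0.03) had a higher ratio in Hb, so that the higher ratios in Hb are relative to DCN and PDGFRB. Between the breeds the differences were -0.25 (exact permutation p = 0.2) for GLI1 and 0.01 (exact permutation p = 1) for HHIP at 30 days, and that of HHIP lay between -0.17 without La3 and 0.20 without La1. At 120 days they were -0.45 (exact permutation p = 0.3), or -0.44 without Hb1 and -0.28 without Lb2, for GLI1 and -0.63 (exact permutation p = 0.2), or -0.34 without Hb1, for HHIP. The sign of both at 120 days turned over PDGFRA alone (0.39 for GLI1 and 0.22 for HHIP), and that of GLI1 also over DCN alone (0.06).

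**Figure D3:**
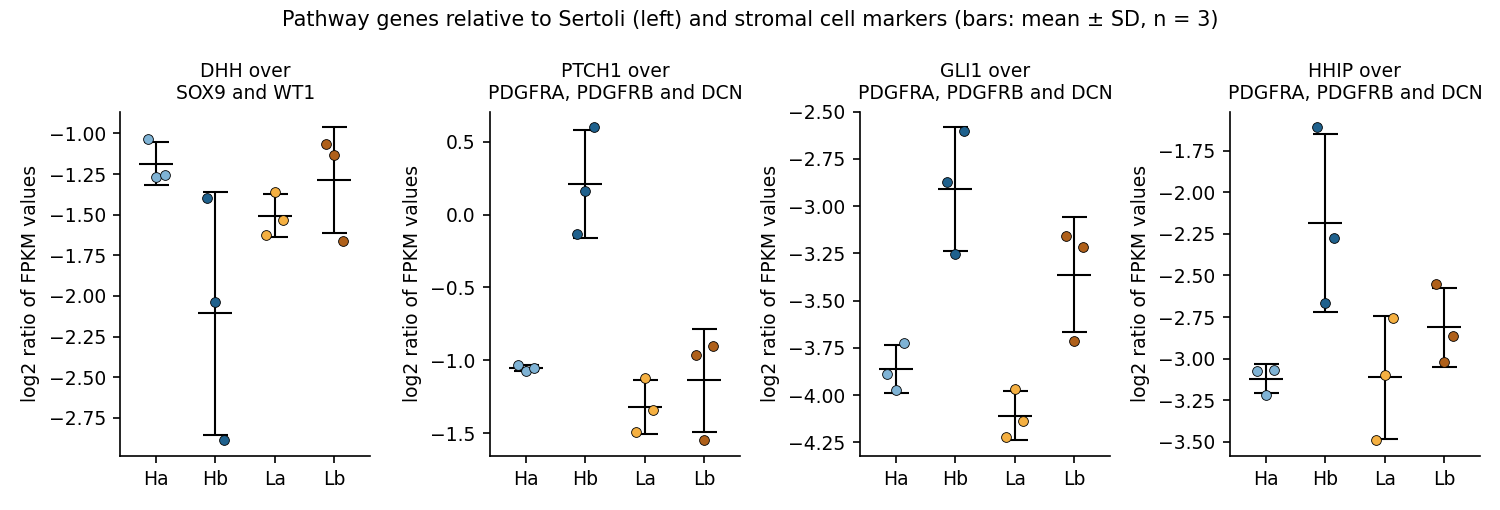
Log2 ratios of FPKM values within each library, DHH over 2 Sertoli cell markers and PTCH1, GLI1 and HHIP over 3 stromal cell markers, with 1 point per library and bars for the mean ± SD of 3 libraries. The Hb libraries are the lowest group mean for DHH and the highest for PTCH1, GLI1 and HHIP.

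The tables of lncRNAs were searched for transcripts within 10 kb of the 7 genes, and 3 were found. An assembled transcript, MSTRG.23656.2, runs antisense to GLI3 within its span, on the minus strand of chromosome 18. It has 2 exons, from 52488330 to 52492876 and from 52494014 to 52495653, and 6187 bases in all. Its estimated counts were 3.54, 12.7 and 9.76 in Ha and 12.5, 4.85 and 0 in La. At 120 days they were 970, 724 and 607 in Hb and 900, 819 and 593 in Lb. The transcript was thus nearly unread at 30 days. Scaled by length, it was at 5.11, 3.53 and 3.85 FPKM in Hb, beside 0.99, 0.88 and 0.69 FPKM of GLI3, and at 4.38, 4.03 and 3.55 FPKM in Lb, beside 1.54, 1.33 and 1.37 FPKM of GLI3.

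The log2 fold change of the antisense transcript was 6.21 in Ha vs Hb (SE 0.49, edgeR adjusted p = 0.000189) and 6.67 in La vs Lb (SE 0.77, edgeR adjusted p = 0.000272), and 6.10 in Ha vs Hb without Hb1 (edgeR adjusted p = 0.00132). Of the lncRNAs tested, 38.6% were called higher with age in HZ boars and 41.8% in LC boars, and 17.6% and 19.3% were called lower. At 120 days the breeds overlapped and differed by -0.08 (SE 0.24, edgeR adjusted p = 0.894), or by 0.05 without Hb1 and 0.07 without Lb3, and at 30 days the transcript was under the filter on low counts. GLI3 and its antisense transcript thus moved in opposite directions with age in both breeds. Reads of GLI3 and of a transcript antisense to it cannot be told apart unless the strand was used in counting, which is not given in the sources used here.

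**Figure D4:**
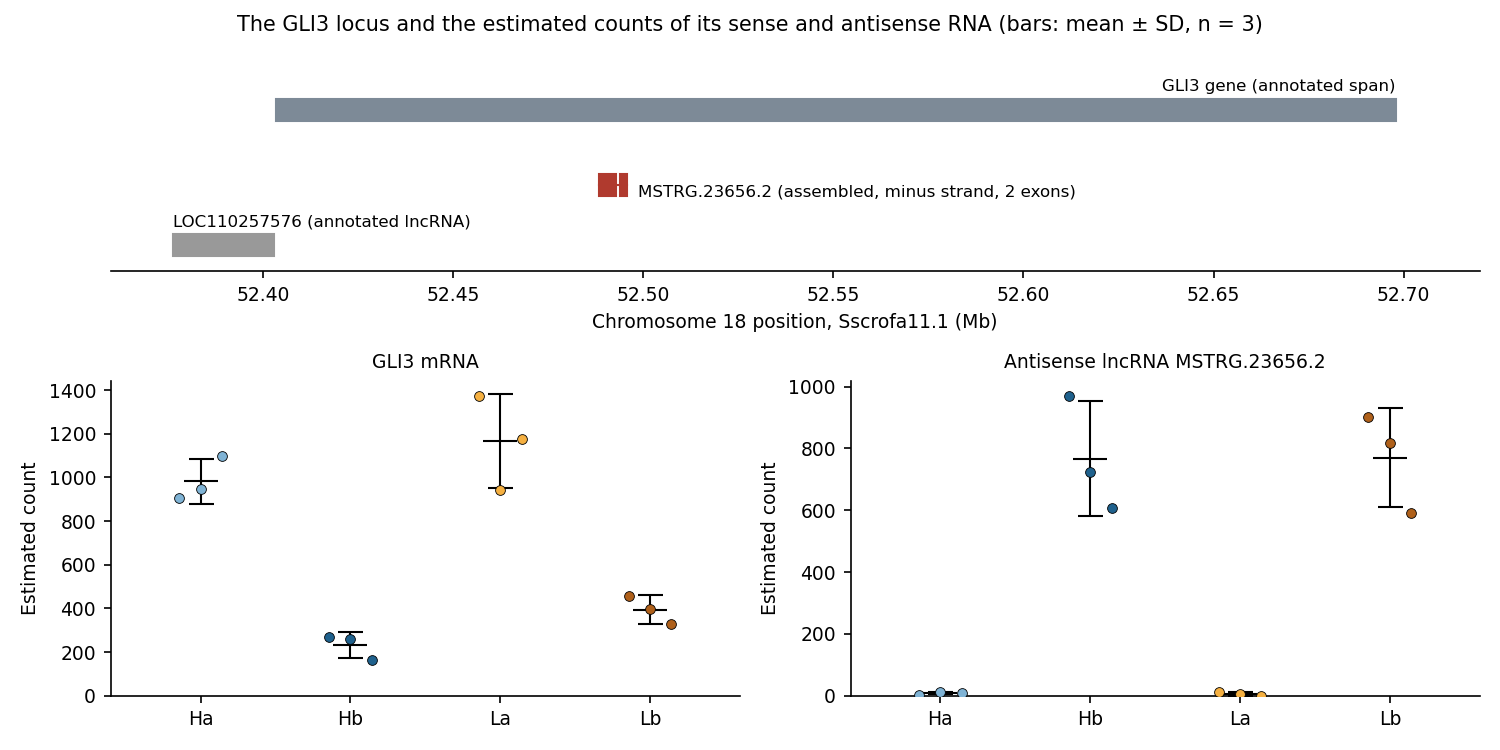
The GLI3 gene, the antisense transcript with its exons and the neighbouring lncRNA LOC110257576 on chromosome 18 (top), and the estimated counts of GLI3 and of the antisense transcript in the 12 libraries (bottom; bars show the mean ± SD of 3 libraries). GLI3 has fewer counts in the 120-day libraries, while the antisense transcript has at most 12.7 counts in any 30-day library and at least 593 in any 120-day library.

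The annotated lncRNAs at these genes had few counts. LOC106505124, inside PTCH1, had 14, 20 and 21 counts in Ha, 3, 3 and 9 in Hb, 26, 19 and 12 in La and 11, 7 and 13 in Lb. It was called lower with age in both breeds, at -1.97 (SE 0.63, edgeR adjusted p = 0.0298) in Ha vs Hb and -1.27 (SE 0.48, edgeR adjusted p = 0.0469) in La vs Lb. Both calls were lost under every other setting tried, with adjusted p between 0.0581 and 0.138 in HZ boars and between 0.144 and 0.273 in LC boars. Each was also lost on leaving out any of 5 of the 6 libraries. The exceptions were Hb3 (-2.70, edgeR adjusted p = 0.0169) and La3 (-1.52, edgeR adjusted p = 0.0437), and without Hb1 the value in HZ boars was -1.63 (edgeR adjusted p = 0.114). LOC110257576, which ends 513 bases from GLI3, had 13, 4 and 34 counts in Ha, 12, 8 and 7 in Hb, 66, 61 and 53 in La and 13, 21 and 13 in Lb. It fell in La vs Lb by -2.33 (SE 0.40, edgeR adjusted p = 0.00147), and stayed called under every other setting tried, at -2.37 to -1.80. In Ha vs Hb its value was -1.10 (SE 0.76, edgeR adjusted p = 0.250), or -1.25 without Hb1 (edgeR adjusted p = 0.324). It lay between -0.93 and -0.38 under the other settings and between -1.58 without Ha2 and -0.15 without Ha3. In simulated data the lncRNA test of Ha vs Hb missed most of the changes placed there, and the share it found varied with the random draw. An lncRNA that was not called is therefore not shown to be unchanged.

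The other genes of the pathway moved in both directions, and several counts called were near the shares of all tested mRNAs. Those shares were 28.2% higher and 23.2% lower with age in HZ boars and 27.5% higher and 20.1% lower in LC boars. Of the 6 genes for processing and release of the ligand, 2 rose and 0 fell with age in HZ boars by edgeR, and 3 rose and 0 fell in LC boars. HHAT, the enzyme that attaches palmitate to hedgehog proteins, rose by log2 fold changes of 3.32 (SE 0.29) and 2.13 (SE 0.18). SCUBE3, a secreted protein of a family that helps to release them, rose by 3.89 (SE 0.42) and 2.90 (SE 0.26). DISP2, a relative of the transporter that releases the ligand, rose in LC boars (1.91, SE 0.26), and its value in HZ boars was -0.15 (SE 0.23).

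Of the 6 other receptors and coreceptors, 3 fell with age in each breed, beside 23.2% and 20.1% of all tested mRNAs. GPC3 (-1.80, SE 0.26 and -1.09, SE 0.35) and GAS1 (-2.04, SE 0.39 and -1.11, SE 0.42) fell in both. CDON, which helps Patched to bind the ligand, fell in HZ boars (-1.07, SE 0.15), and its value in LC boars was -0.73 (SE 0.18). LRP2 fell in LC boars (-1.33, SE 0.43), and its value in HZ boars was -2.11 (SE 1.18, edgeR adjusted p = 0.146), with Hb1 at 0 counts, or -1.53 without Hb1 (edgeR adjusted p = 0.178). Of the 5 other targets described for the pathway, 3 fell in HZ boars, FOXF1 (-1.40, SE 0.40), CCND1 (-1.01, SE 0.24) and BCL2 (-1.54, SE 0.16), and 2 fell in LC boars, FOXF1 (-1.50, SE 0.37) and MYCN (-2.98, SE 0.94). The values not called were -0.12 (SE 0.13) for CCND1 and -0.78 (SE 0.18) for BCL2 in LC boars and -1.83 (SE 0.98) for MYCN in HZ boars. MYCN was listed at 217, 0 and 64.3 counts in Lb and at 0, 70.9 and 45.2 in Hb. Without Hb1 MYCN was called lower in HZ boars (-1.23, edgeR adjusted p = 0.0152), and CCND1 was not called (-0.90, edgeR adjusted p = 0.0260).

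Genes that act at the cilium and on GLI proteins moved both ways. Of these 11 genes, 5 rose and 2 fell in HZ boars, and 5 rose and 3 fell in LC boars, beside 28.2% and 27.5% of all tested mRNAs called higher and 23.2% and 20.1% called lower by edgeR. STK36, a kinase that is also needed for motile cilia, rose by 4.80 (SE 0.23) and 4.50 (SE 0.17), and IFT172, a part of intraflagellar transport, by 2.14 (SE 0.17) and 2.18 (SE 0.10). Next by adjusted p were KIF3A, a motor of that transport, in HZ boars (1.298, SE 0.14; 0.75, SE 0.17 in LC boars, not called) and IFT88 in LC boars (1.58, SE 0.12; 1.95, SE 1.21 in HZ boars, not called). SUFU, which holds GLI proteins in check, fell by -3.00 (SE 1.04) and -1.65 (SE 0.16), with 110, 313 and 0 counts in Hb1, Hb2 and Hb3. Without Hb1 SUFU was not called in HZ boars (-2.92, edgeR adjusted p = 0.0746). Whether a listed 0 stands for absence or for an estimate that was not made cannot be told from the tables. EVC2, which works with Smoothened at the cilium, fell by -1.78 (SE 0.21) and -1.56 (SE 0.19), and KIF7 fell in LC boars (-1.04, SE 0.14), with nearly the same value in HZ boars (-0.98, SE 0.19, edgeR adjusted p = 0.00271), just under the fold threshold. Of the 8 kinases and genes of GLI degradation, 1 was called in each breed, CUL3, which rose by 2.56 (SE 0.15) and 2.04 (SE 0.23). In HZ boars the calls of the other genes named from these lists were all kept without Hb1. Spermatid markers rose with age as well, with all 9 tested called higher in both breeds. The 10 spermatid markers summed to between 4.53 and 10.8 FPKM in the 30-day libraries, with between 1 and 3 of them at 0, and to 5280, 5793 and 7667 FPKM in Hb and 3909, 3342 and 3575 FPKM in Lb, with PRM1 the most abundant there and SPACA3 at 0 in Hb1 and Lb2. The part of germ cells in these rises, and in the falls of the 7 genes, was not tested.

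Between the breeds 2 of the 36 genes of these lists were called at 30 days and 1 at 120 days, beside 7.62% and 3.85% of all tested mRNAs. At 30 days MYCN was higher in La (2.26, SE 0.23, edgeR adjusted p = 0.00134) and DISP2 was lower (-2.35, SE 0.20, edgeR adjusted p = 0.000621). At 120 days BCL2 was higher in Lb (1.07, SE 0.20, edgeR adjusted p = 0.0293), and it was not called without Hb1 (1.03, edgeR adjusted p = 0.0600). The interaction test of edgeR called 2 of these 36 genes, near the share of all tested mRNAs (5.14%). They were DISP2 (2.05, SE 0.33, adjusted p = 0.00755) and HHAT (-1.20, SE 0.32, adjusted p = 0.0449), and both stayed called without Hb1.

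How near the profiles of the 7 genes lay to each other over the 12 libraries was described without a test. The distance between a pair was taken as the root mean square difference of their centred log2 CPM values. The closest pairs were PTCH1 and GLI2 (0.204) and PTCH1 and SMO (0.240), followed by GLI3 and HHIP (0.256) and GLI1 and HHIP (0.282). DHH was closest to GLI1 (0.346) and farthest from SMO (0.769), the widest distance of the 21 pairs, and each of these held without Hb1 (0.337 and 0.775), as did the 2 closest pairs (0.1796 and 0.242). Among 15134 mRNAs compared, the genes with symbols that lay nearest to DHH were ADGRA3 (0.174), RUSC1 (0.192), BCAR1 (0.198), SSBP3 (0.203) and GLRX5 (0.207). Those nearest to PTCH1 were FAM169A (0.112), GNA14 (0.127), GPR137B (0.134), EID1 (0.136) and NOL4L (0.137), and those nearest to GLI1 were MATN2 (0.147), YWHAG (0.158), SELENON (0.165), CALU (0.167) and AKT1 (0.169). The nearest genes depended on the measure, since with Pearson correlation in place of distance only 1 of the 5 was shared for each, ADGRA3 for DHH, EID1 for PTCH1 and MATN2 for GLI1.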

How the data were processed

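Testis RNA of 12 boars, 3 in each group of breed and age, was analysed from deposited tables. The authors filtered reads with fastp 0.18.0, removed ribosomal reads with Bowtie2 2.2.8, mapped the rest to Sscrofa11.1 with HISAT2 2.1.0 and assembled transcripts with StringTie 1.3.4. The deposited estimated counts of mRNAs and lncRNAs are not normalized, and the tool that made them is not given in the sources used here. The FPKM values were scaled by the authors for length and mapped fragments. Estimated counts were rounded, filtered with filterByExpr (minimum count 10), scaled with TMM and tested over the whole table with edgeR 4.0.16 in R 4.3.3, with Benjamini-Hochberg adjustment. SE is the absolute log2 fold change over the square root of F. Ratios used scipy 1.17.1. Positions came from the RefSeq table of the same assembly, in which all 20666 gene IDs matched. Alternatives used DESeq2 1.42.0, limma 3.58.1, other scalings and filters, and fits without each library. Genes named from a list had the lowest adjusted p among those called up or down in a comparison (at most 3 each way, or whatever a count of 5 or fewer needs), and the 5 nearest genes were named for DHH, PTCH1 and GLI1. The members, lists and tests were chosen with earlier results of these data known. Some results on marker and pathway genes are not reported here.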

Additional observations from a re-analysis of the deposited data

Results flagged for a closer look

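In 4 other genes of the pathway the change with age differed between the breeds by the edgeR interaction test, given as the log2 change in LC minus that in HZ boars. This is 2 of 36 listed genes and 2 of 35 tested genes of the annotated pathway beside the members, near the 5.14% of all 17332 mRNAs tested. DISP2 differed by 2.05 (SE 0.33, adjusted p = 0.00755), with 11.8, 10.6 and 8.92 CPM in Ha, 11.4, 9.01 and 7.47 CPM in Hb, 1.88, 2.02 and 2.27 CPM in La and 7.60, 9.17 and 5.79 CPM in Lb, so that La stood alone. HHAT differed by -1.20 (SE 0.32, edgeR adjusted p = 0.0449) and had its highest level in Hb3, at 47.7 CPM beside 25.9 and 27.6 CPM in Hb1 and Hb2. GRK3 differed by -1.14 (SE 0.27, edgeR adjusted p = 0.0289), or -0.88 without Hb1, under the fold threshold, and SMURF1 by -1.16 (SE 0.27, edgeR adjusted p = 0.0270). Both come from the list of the Hedgehog signaling pathway in the deposited annotation.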

How the results depend on the processing

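The members' log2 fold changes were recomputed with DESeq2, limma, other scalings and filters, a replicate block and without each library. Direction and call were kept in 103 of 105 values in Ha vs Hb, 102 of 105 in La vs Lb, 104 of 105 in Ha vs La, 98 of 105 in Hb vs Lb and 133 of 140 for the interaction. Library sizes alone moved the median of all tested mRNAs by -0.30 in Ha vs Hb and by -0.17 in La vs Lb, and limma on log2(FPKM + 0.1) by -0.45 and -0.28. In Hb vs Lb the members called higher numbered 1 with DESeq2, with limma on log2(FPKM + 0.1) and with all 12 libraries in one fit, and 0 to 1 without single libraries. For the interaction they numbered 1 with DESeq2, limma on either FPKM scale and library sizes alone, and 0 to 1 without single libraries. Without single libraries, DHH in Ha vs La lay between -0.16 and 0.0455, PTCH1 in Hb vs Lb between -0.17 and 0.27, SMO there between -0.55 and 0.0511, and the GLI2 interaction between -0.12 and 0.37. LOC106505124 in Ha vs La lay between -0.10 and 0.30, and MSTRG.23656.2 in Hb vs Lb between -0.19 and 0.0667. Among other genes of the pathway, without Hb1 (chosen after seeing the data), the DYNC2H1 interaction turned to 0.157.

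Ratios turned with single markers. In La vs Lb, DHH was -0.0579 over WT1 and PTCH1 -0.10 over PDGFRA. In Ha vs Hb, GLI1 was -0.0136 and HHIP -0.0300 over PDGFRA. In Hb vs Lb, GLI1 was 0.39 over PDGFRA and 0.0589 over DCN, and HHIP 0.22 over PDGFRA. In Ha vs La, HHIP was -0.17 over DCN and lay between -0.17 and 0.20 without single libraries. The causes were not tested.

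With the replicate number as a block no member's call changed. Deviations of same-numbered libraries correlated between -0.0223 and 0.0527 over 12 pairs, and those of differently numbered libraries between -0.146 and 0.122. This gave no sign that the numbers pair boars, but with 3 libraries in each group it cannot exclude a pairing. Groups of 3 boars limit every comparison, and the lncRNAs with under 100 counts are limited by depth and by the low power of their tests.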

Other observations

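The deposited annotation assigns 44 genes to the Hedgehog signaling pathway, and this list was added after values had been seen. Of the 42 tested, 7 rose and 16 fell in Ha vs Hb, and 4 rose and 12 fell in La vs Lb by edgeR. The list holds the 7 members. Of the other 35 genes tested, 7 rose and 9 fell in Ha vs Hb, and 4 rose and 7 fell in La vs Lb. Of all tested mRNAs, 28.2% and 27.5% were called higher and 23.2% and 20.1% lower, so that the falls among the other 35 were near the share of all mRNAs. The rises among them, 7 and 4 of 35, were under that share, and the difference was not tested. Without Hb1, chosen after seeing the data, 6 of the 35 rose and 7 fell in Ha vs Hb. The cell cycle gene CCND2 fell in both, by -3.42 (SE 0.14) and -3.14 (SE 0.20), and the ubiquitin ligase gene SMURF1 rose in both, by 3.76 (SE 0.24) and 2.62 (SE 0.14). ARRB1, an arrestin that can bind Smoothened, fell by -2.00 (SE 0.13) and -1.53 (SE 0.21), and GRK3, a receptor kinase, rose by 2.54 (SE 0.21) and 1.42 (SE 0.16). At 120 days GRK3 was lower in Lb than in Hb (-1.04, SE 0.22, edgeR adjusted p = 0.0400), a call that was lost without Hb1 (-0.83, edgeR adjusted p = 0.0679).

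IFT88 was listed at 0 CPM in Ha1, beside 31.6 and 16.9 CPM in Ha2 and Ha3, which may be an estimate that was not made, and its value in Ha vs Hb was 1.95 (SE 1.21, edgeR adjusted p = 0.186), while in La vs Lb it rose by 1.58 (SE 0.12, edgeR adjusted p = 6.48e-06).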
